A study of Mus musculus with 28 samples.

Results

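The genes of the mouse mitochondrial genome were described as the set of all genes that the count files place on chromosome MT. These were 37 of the 52636 genes in the files: 13 protein-coding genes, 2 ribosomal RNA genes (mt-Rnr1 and mt-Rnr2) and 22 transfer RNA genes. Total RNA of the ventromedial prefrontal cortex had been sequenced from 28 female mice, with 1 library per mouse and 7 mice in each of 4 groups. Every mouse had received a virus, either one carrying LacZ as the control or one labelled as a Slit1 knockdown (Slit1KD), and was taken without stress or after 3 days of a procedure that the labels abbreviate as sCVS. The groups were thus LacZ unstressed, LacZ stressed, Slit1KD unstressed and Slit1KD stressed, and the question was how the virus, the stress and their combination relate to gene expression in this tissue. The tissue was a needle punch, so uninfected cells of the region were included, and the labels give neither the cell types infected nor the promoter of the virus.

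The mitochondrial genome is a small circle present in many copies per cell and transcribed from both strands into long precursors. Transfer RNAs lie between the other genes as punctuation, and their excision releases the ribosomal RNAs and messenger RNAs, whose later abundance depends mainly on how fast each is degraded. The protein-coding genes all encode core subunits of the respiratory chain and of ATP synthase, which neurons need for the ATP that drives ion pumping and synaptic transmission.

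The libraries held between 30.65 and 44.28 M counts each (M, 1e6), with a median of 39.64 M. The targeted gene, Slit1, which encodes a secreted axon guidance ligand, averaged 24.4 ± 16.1 CPM (counts of the gene per 1e6 counts; SD, n = 7) in LacZ unstressed, 19.8 ± 10.2 in LacZ stressed, 25.9 ± 17.5 in Slit1KD unstressed and 18.2 ± 9.81 in Slit1KD stressed libraries. The log2 difference of Slit1 between libraries labelled Slit1KD and LacZ was 0.09 ± 0.43 (SE) without stress and -0.12 ± 0.43 with stress, with adjusted p of 0.9999 and 0.99996 in edgeR's quasi-likelihood test, so the virus comparisons rest on the labels. Cortical excitatory neuron markers, with Slc17a7 and Camk2a among them, were detected for 8 of 8 genes, and their summed level was 274 to 1685 CPM over the 28 libraries. Slit1KD stressed libraries 2 and 7 and LacZ stressed library 4 stand apart in genes of bone, striatum or T cells in earlier results of these data. Without these 3, no mitochondrial gene's log2 difference moved by more than 1 standard error (0 of 105 on each scale) and none was called.

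The mitochondrial RNA counted was mostly ribosomal RNA, although the libraries were made from ribosome-depleted RNA per the labels' protocols. Ribosomal RNA genes held 76.8% ± 3.53 (SD, n = 28) of the mitochondrial counts, protein-coding genes 23.1% ± 3.52 and transfer RNA genes 0.0817% ± 0.0157. mt-Rnr2, the RNA of the large mitochondrial ribosomal subunit, alone held 68.4% ± 4.02 of the mitochondrial counts, from 61.2% to 79.9%. mt-Rnr1, the RNA of the small subunit, held 8.40% ± 1.28. mt-Co1, which encodes the catalytic subunit of cytochrome c oxidase, was the leading messenger RNA with 13.1% ± 1.91. Together with mt-Cytb these 4 genes held 93.4% of the mitochondrial counts.

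**Figure D1:**
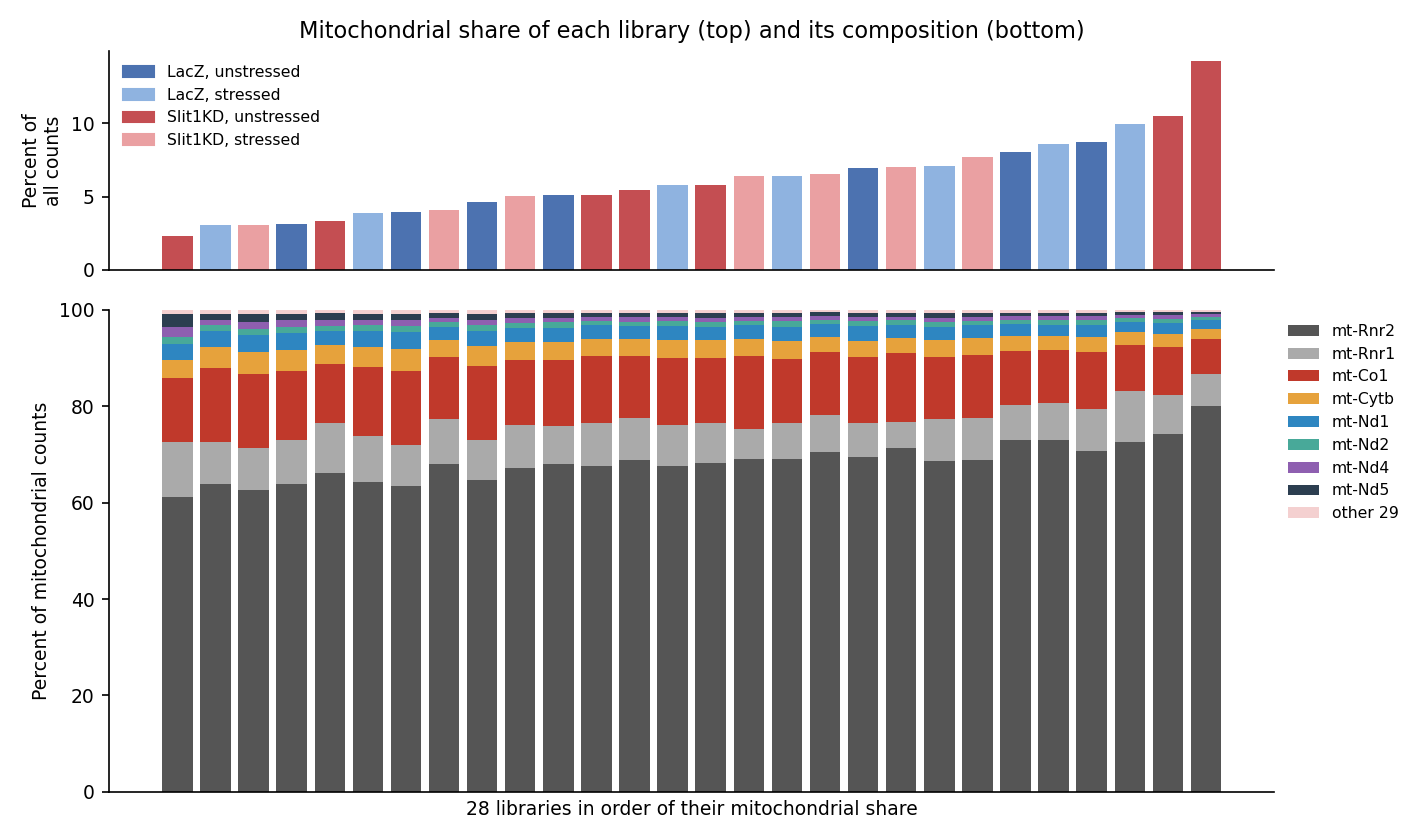
Mitochondrial share of all gene counts (top, percent, coloured by group) and the split of the mitochondrial counts among genes (bottom, percent) in 28 libraries, ordered by the mitochondrial share. The share of mt-Rnr2 goes from 61.2% in the library at the left to 79.9% in the library at the right.

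Levels were compared between genes as counts per kb of annotated gene per 1e6 counts of the library (counts per kb below). mt-Rnr2 stood at 27172 ± 13624 (SD, n = 28), which was 5.18 times the 5248 ± 2144 of mt-Rnr1. mt-Co1 followed at 4922 ± 1417 per kb, a level whose spread overlapped that of mt-Rnr1. With 1021 counts per annotated base in the mean library, mt-Rnr2 was the most densely counted gene, in files whose alignment names say that duplicates were removed. The parts of that step and of the ribosome depletion in the ratio of the 2 ribosomal RNAs were not tested.

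Complex I, the NADH dehydrogenase that starts the chain, takes 7 subunits from this genome, and their messenger RNAs held 26.1% ± 2.52 of the counts of the 13 protein-coding genes. mt-Nd1, which lies at the junction of the membrane and matrix arms, was their highest at 1717 ± 474 counts per kb. mt-Nd2, mt-Nd4 and mt-Nd5, the membrane subunits akin to antiporters, stood at 573 ± 176, 396 ± 80.1 and 282 ± 44.97. mt-Nd6, the only messenger RNA encoded on the other strand, was at 211 ± 67.6, 8.53 times below mt-Cytb; since no strand option was set in counting, reads of mt-Nd6 and reads antisense to it cannot be told apart. mt-Nd3 was at 63.9 ± 29.1 and mt-Nd4l at 6.83 ± 1.598, the lowest of the 13.

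Complex III takes only mt-Cytb, its cytochrome b, from this genome, at 1801 ± 474 counts per kb and 15.5% ± 0.699 of the protein-coding counts. Complex IV takes mt-Co1, mt-Co2 and mt-Co3, which together held 58.0% ± 2.66, but nearly all of this was mt-Co1. mt-Co2, which receives electrons from cytochrome c, was at 118 ± 31.3 per kb, and mt-Co3, a structural subunit, at 139 ± 44.1. The level of mt-Co1 was thus 41.8 times that of mt-Co2 and 35.5 times that of mt-Co3, subunits of the same enzyme. Complex V takes mt-Atp6, the proton channel subunit of ATP synthase, at 68.6 ± 22.9 per kb, and the small subunit mt-Atp8 at 17.01 ± 6.72; together they held 0.373% ± 0.0488 of the protein-coding counts.

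The 5 genes with an annotated copy of nearly their whole length in the nuclear genome, together with mt-Atp8, had the lowest levels of the 13. On GRCm38 chromosome 1, from 24611535 to 24616197 on the minus strand, 7 annotated pseudogenes matched mitochondrial genes in the reference transcripts. They lay in the order of the mitochondrial genes. The distances between neighbouring copies, such as 140 bases from the copy of mt-Co1 to that of mt-Co2 and 233 bases on to that of mt-Atp6, equalled those between the matched bases in the mitochondrial genome, except for 74 against 73 bases between the copies of mt-Nd3 and mt-Nd4l. Gm28661 was identical to mt-Co2 over 681 of 684 bases, Gm10925 to mt-Atp6 over 678 of 681, Gm28437 to mt-Co3 over 783 of 784 and Gm10222 to mt-Nd4l over 294 of 297. Gm28438 matched mt-Nd3 over 345 of 348 bases with 1 difference, T3C, counted from 1 at the first base of mt-Nd3. Copies of part of a gene were Gm28439, identical to the first 876 of 1378 bases of mt-Nd4, and Gm29216, which matched the last 492 of 1545 bases of mt-Co1 with an identical run of 479 bases.

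The beginning of mt-Nd3 and of its copy, the start of mt-Co2, and the stretch of mt-Nd4 in which its copy ends are shown from the reference transcripts (GRCm38), since they mark what a sequenced fragment could and could not tell apart. Capitals mark the base that differs in the first pair, the bases present in both genes in the third sequence, and the bases present in the copy in the last.
mt-Nd3, bases 1 to 60: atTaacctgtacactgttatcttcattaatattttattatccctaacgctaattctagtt
Gm28438, bases 1 to 60: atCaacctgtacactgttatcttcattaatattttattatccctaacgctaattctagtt
mt-Co2 and Gm28661, bases 1 to 60: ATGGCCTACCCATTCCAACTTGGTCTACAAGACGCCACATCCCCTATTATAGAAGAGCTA
mt-Nd4, bases 847 to 906: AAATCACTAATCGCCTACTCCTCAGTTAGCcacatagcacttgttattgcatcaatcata

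Counts were listed for the copies as well as for the mitochondrial genes. For the 5 genes copied over nearly their whole length, the copy held about as many counts as the gene or more: the median ratio of copy to gene over the 28 libraries was 1.46 for mt-Co3, 1.23 for mt-Co2, 2.02 for mt-Atp6, 1.05 for mt-Nd3 and 1.25 for mt-Nd4l. The mean counts of these copies were 6043 for Gm28437, 3768 for Gm28661, 3553 for Gm10925, 915 for Gm28438 and 100.5 for Gm10222. Where only part of a gene had a copy the ratio was small, 0.027 for mt-Nd4 with 558 counts in Gm28439 and 0.015 for mt-Co1 with 4361 counts in Gm29216. Adding the copy's counts to the gene's raised mt-Co3 to 341 ± 101 counts per kb, mt-Co2 to 262 ± 58.7, mt-Atp6 to 205 ± 59.5, mt-Nd3 to 134 ± 62.4 and mt-Nd4l to 15.6 ± 3.598, all still under the levels of mt-Nd1, mt-Nd2, mt-Nd4, mt-Co1 and mt-Cytb. With the copy added, however, mt-Co3 was above mt-Nd5 (282 ± 44.97) and mt-Nd6 (211 ± 67.6), and mt-Co2 above mt-Nd6. How fragments that match both places were treated before counting is not given in the sources used here. The levels of mt-Co2, mt-Atp6, mt-Co3, mt-Nd3 and mt-Nd4l are therefore uncertain, also with the copy added, and the part of the copies in their low level was not tested. The same uncertainty holds for the copied parts of mt-Nd4 and mt-Co1, and so for comparisons with these 2 genes. Any fragments counted for neither place are missing from the sums. mt-Atp8 lies between mt-Co2 and mt-Atp6, and the 233 bases between their copies have no annotated gene.

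For the other ribosomal RNA and protein-coding genes no such copy was found among the annotated reference transcripts. mt-Atp8 matched Gm10925 only over the 43 bases that it shares with mt-Atp6. Sequence without an annotated gene was not searched, so a copy of mt-Atp8 between the copies of mt-Co2 and mt-Atp6 was not tested for. The best match of mt-Nd5 among the reference transcripts was 92.4% identical with a longest identical run of 95 bases, that of mt-Cytb 92.9% with a run of 47, that of mt-Nd2 96.7% with a run of 129 and that of mt-Nd6 93.6% with a run of 39. For mt-Rnr2 it was 88.4% with a run of 65, and none was found for mt-Rnr1 or mt-Nd1. These best-matching nuclear genes of mt-Nd2, mt-Nd5, mt-Nd6, mt-Cytb and mt-Rnr2 held at most 1.68 counts per library on average.

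**Figure D2:**
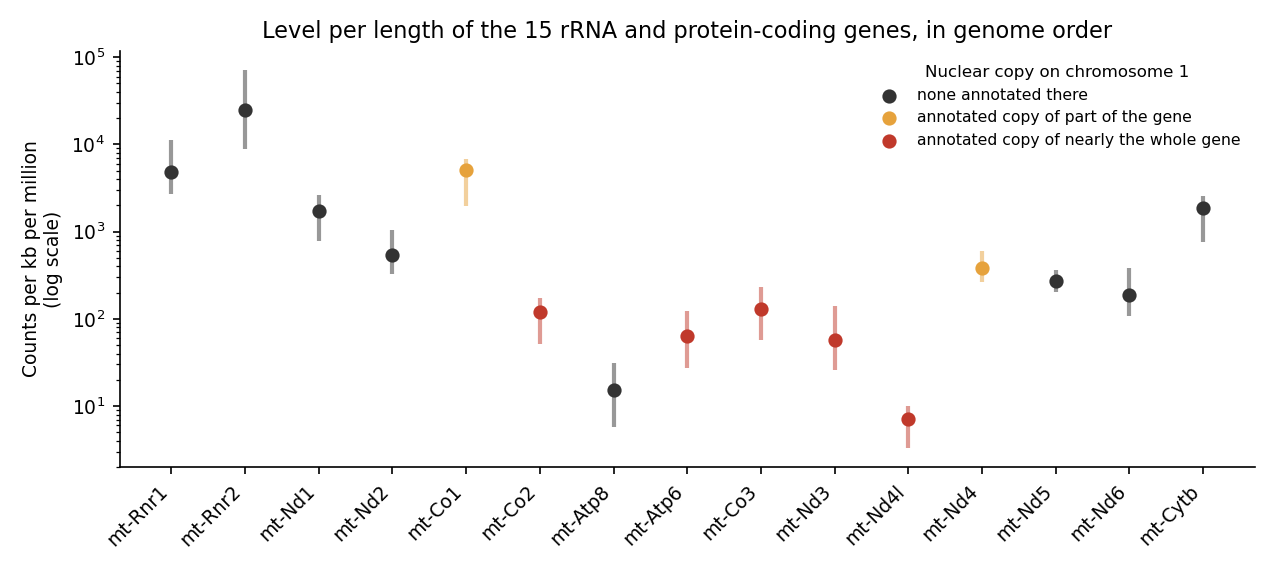
Counts per kb (log scale) of the 15 ribosomal RNA and protein-coding genes in genome order, as the median (point) and the lowest to highest of 28 libraries (line), coloured by the annotated copy on chromosome 1. The 5 genes with an annotated copy of nearly the whole gene have medians under those of all genes without an annotated one except mt-Atp8, which lies between 2 copied genes.

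Genes also share bases within the mitochondrial genome, and fragments lying in a pair of overlapping genes were counted for neither. mt-Atp8 and mt-Atp6 share the 43 bases shown here, MT 7927 to 7969 on the plus strand, in which capitals mark the first codon of mt-Atp6 and the stop codon of mt-Atp8.
Shared bases of mt-Atp8 and mt-Atp6: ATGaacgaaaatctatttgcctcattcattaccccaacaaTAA
They make up 43 of the 204 bases of mt-Atp8, whose level is 21.6 per kb over the rest of its length. mt-Nd5 and mt-Nd6 share 14 bases at their ends and mt-Nd4l and mt-Nd4 share 7.

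The 22 transfer RNA genes were nearly empty, and 3 of them held most of what there was. mt-Tp, the proline transfer RNA, had 1039 counts on average (from 449 to 1911), mt-Tc, for cysteine, 349 (194 to 508), and mt-Tn, for asparagine, 265 (170 to 380). mt-Ty, for tyrosine, had 56.4. The other 18 averaged under 30 counts, 10 of the 22 had no count in at least 1 library, and mt-Tf, for phenylalanine, had 1 count in all 28 libraries together. As for mt-Nd6, reads of a transfer RNA gene and reads antisense to it cannot be told apart. A fragment is counted for a transfer RNA only if it touches no neighbouring gene, and the room between the neighbouring genes was 58 to 105 bases for the 20 with a neighbour on both sides. It was widest for mt-Tn, with 105 bases, and mt-Tc, with 100, which have 32 bases without an annotated gene between them, where replication of the other strand is known to start. Beyond mt-Tp no gene is annotated up to the end of the sequence, where the control region lies. The sequences of these 3 are shown 5′ to 3′ (GRCm38, minus strand), with the anticodon in capitals, found as the middle 3 bases of a loop of 7 between 2 complementary runs of 5.
mt-Tp, MT 15356 to 15422: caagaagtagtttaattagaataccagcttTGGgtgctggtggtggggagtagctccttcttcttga
mt-Tc, MT 5192 to 5257: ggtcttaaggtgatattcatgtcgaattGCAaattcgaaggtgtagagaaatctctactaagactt
mt-Tn, MT 5089 to 5159: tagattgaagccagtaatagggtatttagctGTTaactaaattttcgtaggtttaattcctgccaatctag

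The share of all counts that came from the mitochondrial genome differed widely between libraries of every group. In LacZ unstressed libraries it was 3.10% at the lowest, 5.09% in the median and 8.70% at the highest. LacZ stressed libraries gave 3.08%, 6.44% and 9.98%, and Slit1KD stressed libraries 3.09%, 6.40% and 7.67%. The Slit1KD unstressed group held both the lowest library, library 2 at 2.30%, and the highest, library 7 at 14.2%, with a median of 5.43%. The groups thus overlapped over most of their range, and their means of 5.78% ± 2.13 (SD, n = 7), 6.40% ± 2.45, 6.67% ± 4.22 and 5.70% ± 1.67 for LacZ unstressed, LacZ stressed, Slit1KD unstressed and Slit1KD stressed differed by less than the spread within a group. Libraries with a title number above 20 had a median share of 7.05% (from 2.30% to 14.2%, n = 13) and those up to 20 of 4.66% (from 3.08% to 8.70%, n = 15), and 5 of the 7 Slit1KD unstressed libraries but 2 of the 7 LacZ unstressed ones were numbered above 20; what the numbers stand for is not given. In punched tissue, fewer cells of a type and less RNA per cell cannot be told apart.

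Differences of the group means were small beside the pooled SD of 2.79 percentage points. Libraries labelled Slit1KD were 0.885 points above LacZ without stress and 0.705 points below with stress (a difference of -0.705). Without the Slit1KD unstressed library 7 the first of these was -0.377 points. Stressed libraries were 0.622 points above unstressed ones under LacZ and differed by -0.968 points under Slit1KD, which became 0.294 points without the same library. Counted over the 13 protein-coding genes alone the share was 1.34% ± 0.334, 1.38% ± 0.330, 1.27% ± 0.482 and 1.34% ± 0.340 in the same order of groups, with differences of -0.0687, -0.0405, 0.036 and 0.0642 points.

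**Figure D3:**
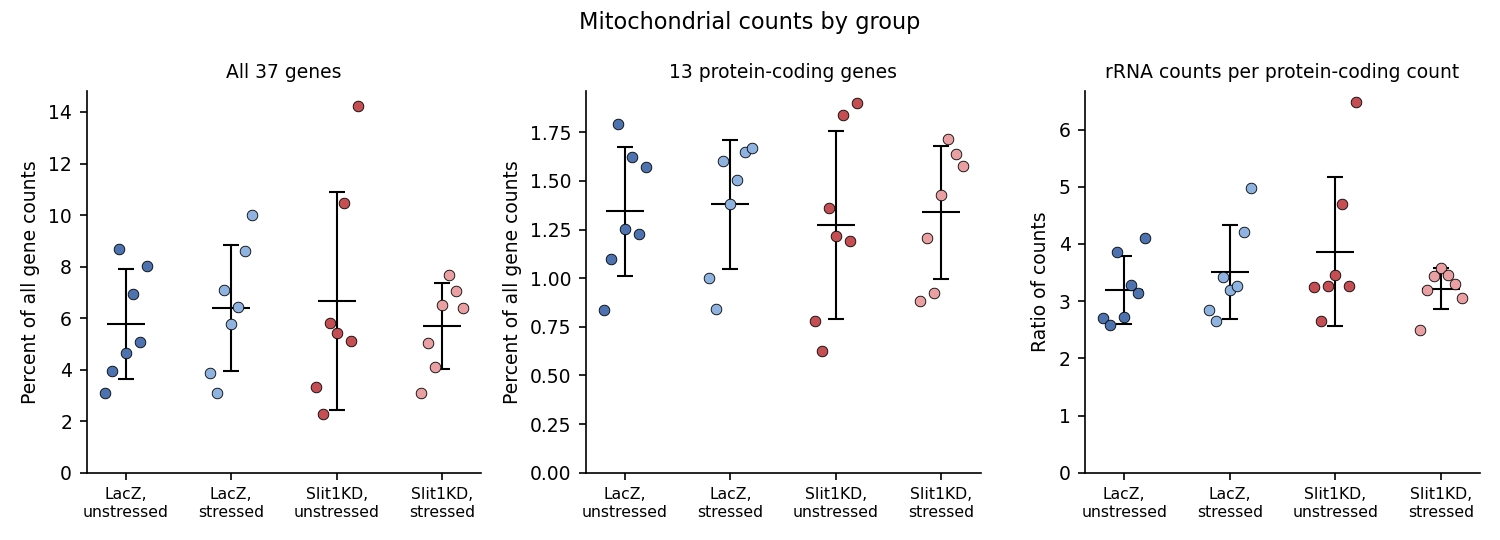
Mitochondrial counts by group: all 37 genes (left) and the 13 protein-coding genes (middle) as percent of all gene counts, and ribosomal RNA counts per protein-coding count (right). Points are the 7 libraries of a group, bars the mean and SD; the groups overlap in each panel, and the highest point at the left and right is Slit1KD unstressed library 7, at 14.2% and 6.48.

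The makeup of the mitochondrial counts also overlapped between the groups. Ribosomal RNA held 75.7% ± 3.26 (SD, n = 7) in LacZ unstressed, 77.2% ± 3.71 in LacZ stressed, 78.4% ± 4.64 in Slit1KD unstressed and 76.1% ± 2.27 in Slit1KD stressed libraries. Per protein-coding count there were 3.20 ± 0.593, 3.51 ± 0.816, 3.87 ± 1.31 and 3.22 ± 0.360 ribosomal RNA counts. Within the protein-coding counts, complex I genes held 26.2% ± 1.28, 25.9% ± 0.821, 27.6% ± 4.14 and 24.8% ± 2.18, and complex IV genes 57.8% ± 1.76, 58.0% ± 1.01, 56.6% ± 3.63 and 59.7% ± 2.93. mt-Cytb, the complex III gene, kept between 13.4% and 16.6% in all 28 libraries. Groups labelled Slit1KD had the wider spread of the complex I share, with 35.9% in Slit1KD unstressed library 2 as the highest value.

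Each gene was then tested in a fit of all 19171 genes that passed a filter on low counts, among them 26 of the 37: the 13 protein-coding genes, the 2 ribosomal RNAs and 11 of the 22 transfer RNAs. The remaining 11 transfer RNAs were too low to be tested. The scales were the level among all genes (TMM-scaled CPM) and the share of the mitochondrial counts. On the second scale genes outside the mitochondrial genome were also divided by the mitochondrial total, so their values are ratios and not shares. These genes enter the estimate of the spread and the adjustment on that scale too. Calls were made in edgeR's quasi-likelihood test, where p adjusted by Benjamini-Hochberg over all genes was under 0.05. None of the 26 was called for the virus, for stress or for their interaction on either scale, and neither was any other gene: the share called was 0% of 19171 in each of the 7 comparisons. The smallest adjusted p of a mitochondrial gene was 0.99986. At an unadjusted p under 0.05 there were 68 to 424 genes per comparison on the first scale and 9 to 90 on the second, with mt-Nd4l and mt-Tw the mitochondrial genes among them, each for the virus averaged over stress. Both ranges lie under 0.05 of the 19171 genes, the share expected if no gene differed. These edgeR tests thus gave fewer small p than that share. Whether they were conservative was not tested, and 0 called does not show that levels were equal. DESeq2 called 0 genes and had 214 to 760 per comparison at an unadjusted p under 0.05; limma called 0, with 576 to 1258 under voomWithQualityWeights on the first scale and 6 to 40 under voom on the second.

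For the 15 ribosomal RNA and protein-coding genes the CPM of the 2 groups compared overlapped in each of the 4 simple comparisons (0 of 15 separate; over all genes the share separate was 0.00522% for the virus without stress, 0.00522% with stress, 0% for stress under LacZ and 0.00522% under Slit1KD). The median log2 difference over the 26 genes was -0.02 for the virus without stress, -0.18 for the virus with stress, -0.01 for stress under LacZ and -0.13 for stress under Slit1KD, beside -0.01, -0.03, -0.01 and -0.01 over all genes tested. Leaving out 1 library turned the sign of 3 of these 4 medians: that for the virus without stress was -0.31 without Slit1KD unstressed library 7 and 0.12 without library 1, that for stress under LacZ ran from -0.15 without LacZ stressed library 6 to 0.13 without LacZ unstressed library 7, and that for stress under Slit1KD from -0.29 without Slit1KD stressed library 6 to 0.17 without Slit1KD unstressed library 7. The median for the virus with stress ran from -0.36 without Slit1KD stressed library 6 to -0.03 without LacZ stressed library 6. With a term for title numbers above 20, the median for the virus without stress was -0.40, with 0 of the 26 above 0 and 4 at an unadjusted p under 0.05 (smallest adjusted p = 0.780 in edgeR's quasi-likelihood test); with the library's GC slope as a term it was -0.18. The comparisons that share a group also share its libraries. In level the genes moved together, with a median r of 0.942 over the 105 pairs among the 15 ribosomal RNA and protein-coding genes. Counts out of the 26 therefore do not stand for separate observations.

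Among the 15 ribosomal RNA and protein-coding genes, mt-Rnr2 had the largest standard errors in level. Its CPM in LacZ unstressed libraries ran from 16840 through a median of 33870 to 79710, in LacZ stressed from 15610 through 46960 to 80570, in Slit1KD unstressed from 12870 through 35120 to 183800, and in Slit1KD stressed from 15480 through 44390 to 61960. The Slit1KD unstressed group spanned the whole range of the others and more. The log2 difference of mt-Rnr2 in level was 0.45 ± 0.51 (SE) for the virus without stress, -0.26 ± 0.51 with stress, 0.10 ± 0.51 for stress under LacZ and -0.61 ± 0.51 under Slit1KD. As a share of the mitochondrial counts the same differences were 0.04 ± 0.09, 0.00 ± 0.09, 0.02 ± 0.09 and -0.03 ± 0.09. These standard errors were the smallest of the set on that scale. As mt-Rnr2 held 68.4% of the denominator, its log2 share can vary little, and the small standard errors arise in part from this.

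mt-Co1 had CPM of 3760, 6848 and 12120 (lowest, median, highest) in LacZ unstressed libraries and of 3758, 9066 and 11980 in LacZ stressed ones. In Slit1KD unstressed libraries the values were 2793, 6540 and 16920, and in Slit1KD stressed ones 3782, 8230 and 12480. The 4 medians lay within the range of every group. In level, mt-Co1 differed by -0.02 ± 0.37, -0.04 ± 0.37, -0.03 ± 0.37 and -0.04 ± 0.37 in the 4 simple comparisons. Its share of the mitochondrial counts differed by -0.20 ± 0.14 for the virus without stress and by 0.23 ± 0.14 for stress under Slit1KD, with unadjusted p of 0.179 and 0.124 and adjusted p of 0.99998 for both in edgeR's quasi-likelihood test.

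mt-Nd5, the distal membrane subunit of complex I, had the narrowest range of the abundant messenger RNAs. Its CPM ran from 363 through 494.6 to 727 in LacZ unstressed, from 295 through 577 to 737 in LacZ stressed, from 326 through 502 to 938 in Slit1KD unstressed and from 332 through 455 to 658 in Slit1KD stressed libraries. Its level differed by 0.06 ± 0.24 and -0.17 ± 0.24 for the virus without and with stress, and by -0.02 ± 0.24 and -0.25 ± 0.24 for stress under LacZ and Slit1KD. mt-Nd4l, with a mean of only 78.4 counts and a nuclear copy of equal sequence, had the smallest unadjusted p of the 15 in level, for the virus averaged over stress (log2 difference -0.39 ± 0.17, unadjusted p = 0.0269, adjusted p = 0.99992 in edgeR's quasi-likelihood test). It averaged 2.42 ± 0.633 and 2.26 ± 0.775 CPM in the LacZ groups, unstressed and stressed, and 1.87 ± 0.566 and 1.71 ± 0.392 CPM in the Slit1KD groups.

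**Figure D4:**
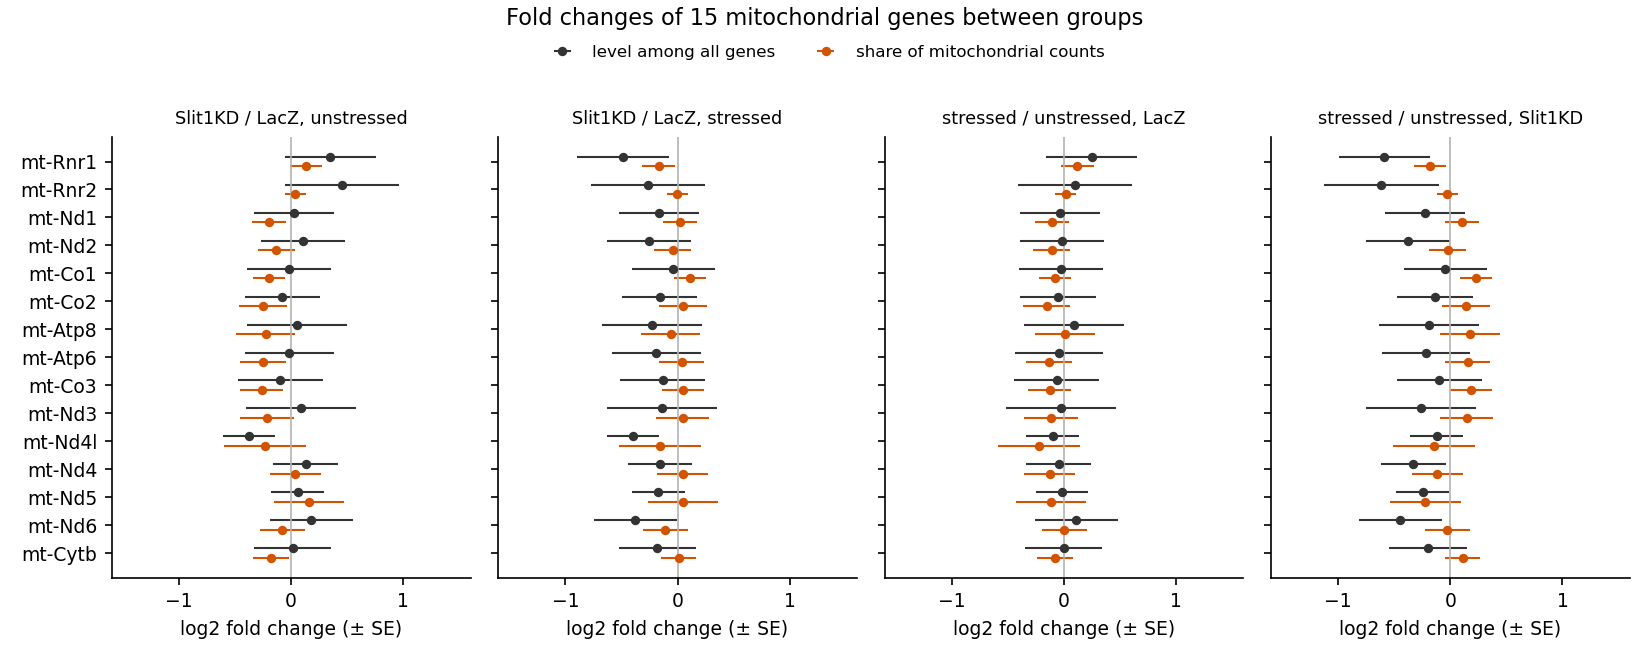
Log2 fold change (point) and standard error (bar) of the 15 ribosomal RNA and protein-coding genes in the 4 simple comparisons, as a level among all genes (black) and as a share of the mitochondrial counts (orange). No gene passed the adjusted threshold; the bars of mt-Rnr2 are 0.51 in level and 0.09 in share.

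Across libraries, irrespective of group, the makeup of the mitochondrial counts moved with their amount. The mitochondrial total enters both sides of each relation given next, and mt-Rnr2 held 68.4% of it. A permutation does not remove the part of r that arises from this. Libraries with a higher mitochondrial share of all counts had a higher share of mt-Rnr2 within it (Pearson's r = 0.950, Spearman's rho = 0.943, permutation p = 1e-05, the smallest that 100000 permutations can give, adjusted p = 2.5e-05 over 10 relations, n = 28; 0.914 with the 2 most distant libraries on the x axis left out). The share of mt-Cytb went the other way (r = -0.915, rho = -0.924, permutation p = 1e-05, adjusted 2.5e-05; r = -0.865 without the 2 farthest), as did mt-Nd1 (r = -0.896, rho = -0.872, permutation p = 1e-05, adjusted 2.5e-05; -0.850). For mt-Co1 r was -0.825 (rho = -0.657, permutation p = 1e-05, adjusted 2.5e-05; -0.671 without the 2 farthest) and for mt-Nd5 -0.721 (rho = -0.907, permutation p = 0.00022, adjusted 0.00031; -0.744). mt-Nd6 gave r = -0.685 (rho = -0.700, permutation p = 7e-05, adjusted 0.00014; -0.695) and mt-Atp6 r = -0.644 (rho = -0.545, permutation p = 0.00017, adjusted 0.00028; -0.512).

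mt-Rnr1, the other ribosomal RNA, went with mt-Rnr2 in level (r = 0.967 of log2 CPM, a description) but not in share, where mt-Rnr2 holds 68.4% of the denominator. The share of mt-Rnr1 was lower where the mitochondrial share was higher (r = -0.440, rho = -0.531, permutation p = 0.0206, adjusted 0.021). Without the 2 farthest libraries r was -0.373 with a permutation p of 0.0605, so the call by Pearson's r was not kept. For rho over all 28 libraries the permutation p was 0.00421 (adjusted 0.0042). With the group means removed, r over all 28 was -0.536 (permutation p = 0.00347). The shares of mt-Rnr1 and mt-Rnr2 were also inversely related (r = -0.522, rho = -0.605, permutation p = 0.00487, adjusted 0.0054; -0.429 without the 2 farthest). Counts of mt-Rnr2 per count of mt-Rnr1 ran from 5.39 in Slit1KD unstressed library 2 to 13.5 in Slit1KD stressed library 6. The part of the ribosome depletion in this ratio and in the shares of the 2 RNAs was not tested.

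Libraries with fewer counts in total had a larger mitochondrial share (r of log2 total count with the mitochondrial share = -0.642, rho = -0.599, permutation p = 0.00032, adjusted 0.0004; -0.459 without the 2 farthest). The total count is the denominator of the mitochondrial share, so a part of this negative r can arise from that, and a permutation does not remove it. With the group means removed, all 10 relations kept their direction and an adjusted p under 0.05. Among the 15 libraries numbered up to 20 in the titles and the 13 numbered above 20, r of the mitochondrial share with the mt-Rnr2 share was 0.880 and 0.959, and with the mt-Nd5 share -0.873 and -0.677.

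Shares share a denominator, so the relations were repeated over the 13 protein-coding genes alone. Here too the protein-coding total enters both sides. As mt-Co1 held 56.6% of that total, a positive r of mt-Co1 can arise in part from this. For most genes r was then near 0 or of the other sign: r with the protein-coding share of all counts was -0.192 for mt-Cytb, 0.094 for mt-Nd1, 0.237 for mt-Atp6 and -0.092 for mt-Nd6 (permutation p = 0.333, 0.632, 0.225 and 0.639), and mt-Co1 went to r = 0.607 (permutation p = 0.00031, adjusted 0.00093 over 6 relations). For mt-Nd5 the relation stayed at r = -0.716 (permutation p = 1e-05, adjusted 6e-05). mt-Nd5 held 10.3% of the protein-coding counts in Slit1KD unstressed library 2, the library with the fewest mitochondrial counts, at most 5.67% in the other 27, and 2.79% at the lowest, in Slit1KD stressed library 6. In 3 relations chosen after these values were seen, in which the 2 sides have no mitochondrial gene in common, mt-Nd5 per mt-Co1 count went with the ribosomal RNA share of all counts at r = -0.518 (rho = -0.774, permutation p = 0.0234; adjusted 0.029 over 5 added relations; -0.599 without the 2 farthest). Its r was -0.789 among libraries numbered up to 20 and -0.479 (permutation p = 0.108) among those above 20. mt-Rnr2 per mt-Rnr1 went with the protein-coding share at r = 0.689 (rho = 0.717, permutation p = 8e-05, adjusted 0.00013; 0.614), and mt-Cytb per mt-Nd1 with the ribosomal RNA share at r = -0.332 (rho = -0.247, permutation p = 0.0836, adjusted 0.084; -0.045).

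**Figure D5:**
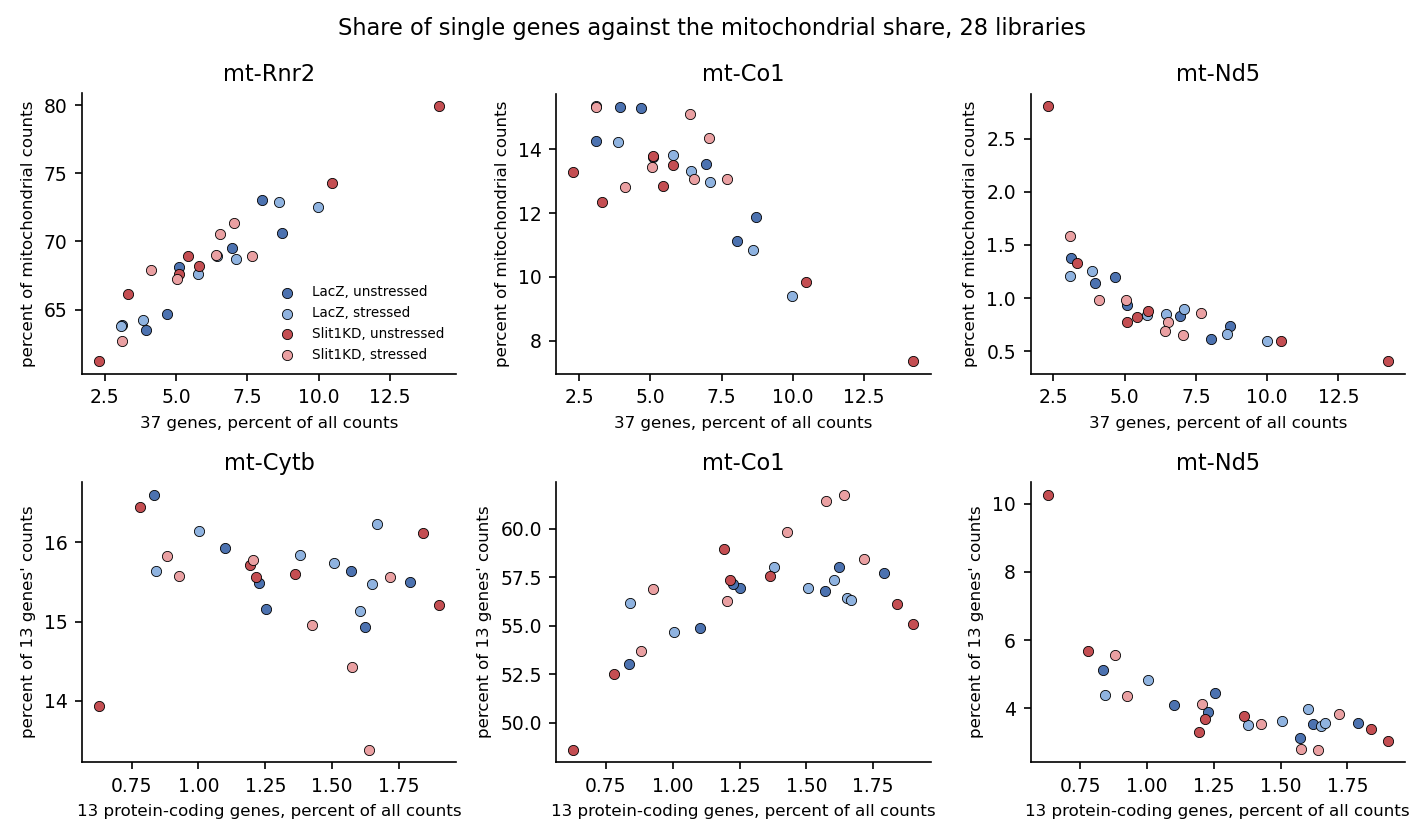
Share of single genes (percent) in 28 libraries, coloured by group. Top, share of mitochondrial counts of mt-Rnr2, mt-Co1 and mt-Nd5 against the mitochondrial share of all counts; bottom, share of the protein-coding counts of mt-Cytb, mt-Co1 and mt-Nd5 against the protein-coding share. mt-Nd5 falls from left to right in both panels (r = -0.721 and -0.716), while mt-Co1 falls at the top and climbs at the bottom (r = -0.825 and 0.607). The gene of each panel is part of the sum on its x axis.

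The genes also differed in how widely their levels varied. The SD of log2 CPM over the 28 libraries was 0.93 for mt-Rnr2, 0.90 for mt-Nd3, 0.75 for mt-Rnr1, 0.69 for mt-Co1, 0.64 for mt-Cytb, 0.52 for mt-Nd4 and 0.43 for mt-Nd5. Of the 200 most abundant other genes, with a median SD of 0.495, 97% varied less than mt-Rnr2 and 93% less than mt-Rnr1. Of 612 genes within a factor of 2 of the level of mt-Nd5, 45.8% varied less than it. Scaled by total counts instead of TMM, the SD was 0.70 for mt-Rnr2 and 0.23 for mt-Nd5, the order of the 2 being the same.

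The 15 genes moved together over the libraries in level. The correlation of log2 CPM was at least 0.624 and 0.942 in the median over the 105 pairs, given as a description since the genes share libraries and depth. It was highest between mt-Nd1 and mt-Cytb, at 0.996. The genes that went least with the others were mt-Nd4l, with r of 0.624 to 0.716, and mt-Nd5, with r of 0.648 to 0.938.

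Genes outside the mitochondrial genome were ranked by the correlation of their log2 CPM with log2 of the summed mitochondrial CPM, as a description over the 28 libraries and 9077 genes with a mean of at least 10 CPM. The most alike were Ywhae, which encodes a 14-3-3 protein, at r = 0.982, Mpc2, a subunit of the mitochondrial pyruvate carrier, at 0.971, and Dld, the shared dehydrogenase subunit of pyruvate and 2-oxoglutarate dehydrogenase, at 0.970. Ssr1, Ppp1cb, Rab18, Hspa4l, Tmem106b, Phf3 and Rxylt1 followed, the last of them at 0.963. The least alike were Gpr107 (-0.964), Itpk1 (-0.963), Smarca4 (-0.956), Ascc2 (-0.954) and Dnm2 (-0.953). As many as 1393 genes had r of at least 0.9, and the 100 highest had a median GC content of 42.4%, the 100 lowest of 55.4% and all 9077 of 47.9%.

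The mitochondrial genes are themselves low in GC, from 31.9% in mt-Atp8 to 41.1% in mt-Nd4l among the protein-coding genes and 35.4% in mt-Rnr2. The slope of a library's log2 CPM on gene GC content, fitted over nuclear genes, was related to the mitochondrial share of counts (r = -0.822, rho = -0.882, permutation p = 1e-05, adjusted 5e-05, n = 28; -0.806 without the 2 farthest) and to the mt-Rnr2 share (r = -0.814, rho = -0.882, permutation p = 2e-05, adjusted 5e-05; -0.796). The lowest slope, -1.02 log2 units per 10 percentage points, and the highest mitochondrial share, 14.2%, were both in Slit1KD unstressed library 7. These 2 relations were chosen after the data were seen, and the part of GC content in the shares was not tested.

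Nuclear genes that maintain, transcribe, process or work with the mitochondrial genome were taken from fixed lists. None was called in any comparison by edgeR's quasi-likelihood test, in either direction. Of 20 genes for mitochondrial DNA replication and transcription, all tested, 0 rose and 0 fell; the smallest unadjusted p in the simple comparisons were those of Polg2, the accessory subunit of the DNA polymerase (log2 difference 0.33 ± 0.21 for stress under Slit1KD), and Mgme1, a DNA exonuclease (0.20 ± 0.15 for stress under LacZ). Of 27 genes for RNA processing, stability and decay, 25 were tested and 0 called, with Fastkd3 at 0.24 ± 0.16 for stress under Slit1KD and Lrpprc, which stabilises mitochondrial messenger RNAs, at -0.12 ± 0.09 for the virus without stress. Of 16 regulators of mitochondrial content 0 were called, with Esrrg at -0.46 ± 0.19 for stress under Slit1KD and Gabpb2 at 0.23 ± 0.16 for the virus without stress.

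Nuclear subunits of the same respiratory complexes gave 0 called of 35 tested for complex I and 0 of 33 for complexes III, IV and V. The median log2 difference for the virus without stress was -0.188 over the complex I subunits and -0.213 over those of complexes III, IV and V, beside -0.0117 over all genes. For the virus with stress these medians were -0.0771 and -0.0698, for stress under LacZ -0.0204 and 0.00397, and for stress under Slit1KD 0.0597 and 0.147. For the virus without stress Ndufa5 stood at -0.24 ± 0.13, Ndufb5 at -0.19 ± 0.12, Uqcrc2 at -0.21 ± 0.10 and Atp5a1 at -0.30 ± 0.18. Of 72 mitochondrial ribosomal proteins tested 0 were called; Mrpl30 was at -0.31 ± 0.11 for the virus without stress and Mrps23 at -1.46 ± 0.57 for stress under Slit1KD. Over the libraries, the correlation with the summed mitochondrial level had a median of -0.727 over 35 complex I subunits, with 14 above 0. It had a median of -0.731 over 33 subunits of the other complexes, with 10 above 0. Single subunits ran from -0.877 to 0.955 and from -0.879 to 0.951. Over the 9077 genes with a mean of at least 10 CPM the median was 0.322. The part of GC content in these correlations was not tested. The 7 nuclear copies had a median of 0.941, with 7 of 7 above 0; Gm10222, the copy of mt-Nd4l, had the smallest p among them (-0.56 ± 0.22 for the virus without stress, adjusted p = 0.9999 in edgeR's quasi-likelihood test).

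Some markers of other cell types moved with the mitochondrial level from library to library. Endothelial and mural markers, 6 of 6 detected, summed to 239 to 397 CPM in LacZ unstressed, 210 to 421 in LacZ stressed, 226 to 569 in Slit1KD unstressed and 222 to 386 in Slit1KD stressed libraries, with r = 0.856 between the log2 sum and the log2 mitochondrial sum. Microglia markers, 6 of 6 detected, summed to 70.9 to 509.7, 89.1 to 591, 85.9 to 494.5 and 126 to 588 CPM in the same order, with r = -0.834. Astrocyte markers gave r = 0.767, interneuron markers 0.739 and excitatory neuron markers -0.414, and the other 8 lists lay between -0.427 (oligodendrocyte precursors) and 0.4705 (red blood cells), with T cells at -0.289, striatal neurons at 0.291 and meninges at -0.0557, all over the same 28 libraries and given without a test. Of 13 marker lists, genes at 0 in every library were Gpr17 (oligodendrocyte precursors), Ogn (meninges), Alas2 (red blood cells) and Acp5 (osteoclasts). Both sums were divided by the same TMM-scaled library size, so a part of each r can arise from this. The part of these cell types in the mitochondrial share was not tested.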

How the data were processed

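Deposited were 28 files of raw counts, 1 per library, in which fragments had been assigned to genes by the authors with featureCounts 1.6.2 on read pairs over whole gene spans of the Ensembl 90 annotation of GRCm38, per the file headers. The headers set no option for strand, for fragments that align to several places or for overlapping genes, and the alignment names record removal of duplicates. HISAT2, featureCounts, Subread and DESeq2 are named with GRCm38 in the submitters' processing notes. Fragments of overlapping or closely spaced genes, and of genes with identical copies, are therefore the least certain.

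The members and gene lists were chosen with earlier results of these data known. Mice are separate animals per the labels, and no pairing or batch is given. Levels are CPM on TMM-scaled library sizes, and shares are percent of the library's mitochondrial counts. All genes passing filterByExpr were fitted with edgeR 4.0.16 (glmQLFit and glmQLFTest, robust, 1 coefficient per group) in R 4.3.3, once with TMM factors and once with the mitochondrial total as library size, with Benjamini-Hochberg adjustment over all genes and a threshold of 0.05. The fit was tested on simulated counts. DESeq2 1.42.0 and limma 3.58.1 were alternatives. Relations over libraries used two-sided permutation tests with 100000 permutations. The GC slope is that of centred log2 CPM on GC content over 15656 nuclear genes. Symbols and sequences come from GENCODE for the same build, and 52403 of 52636 identifiers matched. Genes outside the mitochondrial genome were named by likeness (10 highest, 5 lowest) or by the 2 smallest p per list, and transfer RNAs at a mean of 100 counts.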

Additional observations from a re-analysis of the deposited data

Results flagged for a closer look

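In groups of 7 libraries, the highest or lowest value was set against Dixon's limit for the gap to the nearest other library. This was done for 136 groups of values, where chance alone gives about 1 in 20, or 6.8; 9 values passed, in 4 libraries, and no difference between comparisons passed a test.

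Slit1KD stressed library 1 held 6 of them. Its protein-coding genes made up 28.5% of the mitochondrial counts and its ribosomal RNA 71.4%, the nearest other libraries of the group being at 24.6% and 75.3%. Its shares of mt-Nd2 (1.34%, next 1.01%), mt-Nd4 (1.43%, next 1.02%), mt-Nd5 (1.59%, next 0.987%) and mt-Nd6 (0.279%, next 0.190%) were all above those of the other 6 libraries. This library also had the lowest mitochondrial share of its group, 3.09%.

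In Slit1KD unstressed library 2, with the lowest mitochondrial share of all 28 libraries, mt-Nd5 held 2.81% of the mitochondrial counts, against at most 1.33% in the rest of its group. The CPM of mt-Nd3 was 78.9 in Slit1KD unstressed library 7, next to 36.6. The CPM of mt-Atp8 was 7.87 in Slit1KD stressed library 6, next to 3.83.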

How the results depend on the processing

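Over 505 alternative fits (other scaling, tools, filters, covariates, only 2 groups, another denominator, or without 1 or 3 libraries) 0 mitochondrial genes were called, also at an adjusted p under 0.1, and the smallest adjusted p of one was 0.494; a p that misses the threshold does not show that levels were equal. Of 7575 single log2 differences 74 moved by more than 1 standard error, 35 of them of 105 under voomWithQualityWeights, where the median over the genes was 0.25 for stress under LacZ and -0.36 for the virus averaged, against -0.01 and -0.10. With a term for title numbers above 20, the median was -0.40 for the virus without stress, -0.16 for stress under LacZ and 0.24 for the interaction, against -0.02, -0.01 and -0.08; with the GC slope as a term the first was -0.18. Without Slit1KD unstressed library 7 the median for the virus without stress was -0.31 and for stress under Slit1KD 0.17, against -0.02 and -0.13. Dividing by the 13 protein-coding genes instead of all 37 moved the median of all genes in the virus comparison without stress from 0.08 to 0.19 and that of the mitochondrial genes from -0.20 (5 of 26 above 0) to -0.03 (9 of 26), and 20 of 105 values by more than 1 standard error. Differences of the mitochondrial share moved by less than the pooled SD of 2.79 points, but not by little: with TMM library sizes they were 1.76 for the virus without stress, -2.42 for stress under Slit1KD and -2.80 for the interaction, against 0.885, -0.968 and -1.59, and with group medians stress under Slit1KD was 0.972.

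Of the 10 relations, that of the mitochondrial share with mt-Rnr1 was weaker without the 2 farthest libraries (r = -0.373) and among libraries numbered above 20 (-0.324), and that of mt-Rnr1 with mt-Rnr2 among libraries numbered up to 20 (-0.422) and above 20 (-0.498). Over the 13 protein-coding genes, r was -0.092 for mt-Nd6 and -0.192 for mt-Cytb, and turned to 0.607 for mt-Co1, 0.094 for mt-Nd1 and 0.237 for mt-Atp6; the change of denominator removes mt-Rnr2. The added relation of mt-Nd5 per mt-Co1 had r = -0.479 (permutation p = 0.108) among libraries numbered above 20. No paired analysis was possible because the groups compared share no replicate numbers in the labels, where each title number occurs once; the numbers used here follow deposit order within a group and only name a library. Low counts limit mt-Nd4l, under 100 counts in 26 of 28 libraries, mt-Atp8, under 100 in 7 of 28, and most transfer RNAs.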

Other observations

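Genes encoded on the minus strand, which are mt-Nd6 and 8 transfer RNAs, held 0.266% ± 0.0461 (SD, n = 28) of the mitochondrial counts, from 0.195% in Slit1KD unstressed library 7 to 0.379% in Slit1KD stressed library 1. Since no strand option was set in counting, reads antisense to these genes are included. Of the 3 transfer RNAs with counts, mt-Tp had an SD of log2 CPM of 0.854 over the 28 libraries, and mt-Tc and mt-Tn had 0.656 and 0.603. All 3 went with the sum of the other 36 genes in level (r = 0.940, 0.922 and 0.886, as a description without a test).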
